A study of Homo sapiens with 12 samples.

Results

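The genes of sterol and fatty acid synthesis, with the regulators that drive them and 3 targets of the liver X receptors (LXR), were followed across mRNA-seq libraries of HCC1806, a triple-negative breast cancer (TNBC) cell line. They were chosen by name, as the genes of the deposited table whose Ensembl identifier maps to 1 of 36 listed symbols, and the rule itself uses no measured value. The list was, however, drawn up with earlier results of these data known, which the comparisons with all genes below do not account for. All 36 were found among the 17013 genes of the table. The cells carried either non-targeting siRNA (siNT) or a pool of siRNAs against MLK4 (siMLK4), a mixed-lineage kinase encoded by MAP3K21, and were given doxorubicin, an anthracycline that poisons topoisomerase II, or no drug. The 4 groups, of 3 libraries each, were siNT cells with vehicle, siNT cells with 1 μM doxorubicin for 24 h, siMLK4 cells with vehicle and siMLK4 cells with 1 μM doxorubicin for 24 h. Cells without drug are labelled as time 0 and as DMSO, and the methods call them untreated. They are called vehicle here, and the time in culture cannot be told apart from the drug if they were harvested earlier. All groups come from 1 cell line, and the siMLK4 groups received the same siRNA pool. Loss of MLK4 therefore cannot be told apart from other effects of that pool. The 3 libraries of a group are triplicate transfections, so the p-values below measure the spread between these transfections.

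Cells make cholesterol from acetyl units through mevalonate, isoprenoid diphosphates, squalene and lanosterol, and they make fatty acids from the same acetyl units through malonyl units. Both routes are switched on by the sterol regulatory element-binding proteins (SREBPs), membrane proteins that SCAP carries to the Golgi for cleavage when sterols are low and that INSIG proteins hold back in the endoplasmic reticulum when sterols are high. SREBP-2 acts mainly on sterol genes and SREBP-1 mainly on fatty acid genes, whereas LXRs sense oxidised sterols and switch on cholesterol export and the SREBP-1 gene. Breast cancer cells draw on both routes for membranes.

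The libraries held 17567050, 19239066 and 18082509 reads on genes for siNT vehicle, 18384153, 16759025 and 17275064 for siNT doxorubicin, 18092154, 18304034 and 17402498 for siMLK4 vehicle, and 18901864, 19302248 and 18044286 for siMLK4 doxorubicin. Values below are normalized reads, which are reads divided by the size factor of the library. As a check of the siRNA labels, MAP3K21 stood at 553, 669.6 and 674 normalized reads with vehicle and 758, 856 and 772 with doxorubicin in the siNT libraries, and at 103, 94.7 and 88.7 with vehicle and 113, 138 and 94.4 with doxorubicin in the siMLK4 libraries. Every siMLK4 library lay below every siNT library, and the log2 fold change of siMLK4 against siNT was −2.24 (SE 0.12, adjusted p = 9.7e-08) with vehicle and −2.37 (SE 0.12, adjusted p = 1.1e-07) with doxorubicin. The 7 basal epithelial markers listed, of which KRT5 was the most abundant, summed to 29246 to 69733 normalized reads per library, whereas the hormone receptors ESR1 and PGR together summed to 53.4 to 148 and PGR had 0 reads in the 6 vehicle libraries. Of 4 fibroblast and 5 leukocyte or endothelial markers listed, 2 of each were in the table, led by COL1A1 and VWF, with sums of 279.8 to 809.8 and 19.7 to 88.003 normalized reads. The basal sum was 62889 to 69733 in vehicle and 29246 to 43395 in doxorubicin libraries, and the fibroblast marker LUM fell with doxorubicin, by 1.56 in siNT and 2.05 in siMLK4 cells on the log2 scale, while COL1A1 had −0.08 and −0.35 and did not pass. Other markers moved both ways. PGR was called higher with doxorubicin in both backgrounds, at 7.26 to 18.5 normalized reads in the doxorubicin libraries, ESR1 had −0.61 in siNT cells and fell by 0.78 in siMLK4 cells, and the leukocyte marker PTPRC had 0.59 in siNT cells and rose by 0.84 in siMLK4 cells, whereas VWF, at 0.10 and 0.07, did not pass. The part of these markers in the results below was not tested. Vehicle libraries of 1 group differed in how their values depend on transcript length. The slope of a library's values on the log2 length of the transcript, relative to its group, was −0.095, 0.012 and 0.083 in siNT vehicle libraries 1, 2 and 3 and 0.097, 0.025 and −0.122 in siMLK4 vehicle libraries 1, 2 and 3, and it ranged from −0.055 to 0.055 in the doxorubicin libraries. Values of the long transcript of ACACA were higher with a higher slope among the vehicle libraries of a group, and those of the short ones of PMVK, MVD and EBP went the other way. The tests are therefore also given with a length slope in the fit where the call differs. The slope in that fit is relative to the mean of all libraries, from −0.123 to 0.096, so it can also carry differences between groups.

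Each of the 36 genes had reads in every library, with 10.1 normalized reads as the lowest value. Levels can be compared between genes only per length, as normalized reads per kilobase of the annotated transcript. On that scale SCD, the desaturase that makes oleic acid, was the highest in siNT vehicle cells, at 3202 ± 448 (SD, n = 3). FDFT1, which joins farnesyl units to squalene, followed with 2278 ± 128 (SD, n = 3), and SQLE, which oxidises squalene, with 2022 ± 70.3 (SD, n = 3). These 3 levels did not overlap between their libraries. Neighbours from FDPS, at 1418 ± 151 (SD, n = 3), to SREBF2, at 619.8 ± 7.56 (SD, n = 3), overlapped pair by pair. The gene for SREBP-2 stood above that for SREBP-1, SREBF1, at 459 ± 86.5 (SD, n = 3), without overlap. At the lower end were the sterol exporters ABCG1, with 53.0 ± 22.4 (SD, n = 3), and ABCA1, with 12.4 ± 5.94 (SD, n = 3), and CYP51A1, the lanosterol demethylase, with 10.4 ± 1.37 (SD, n = 3), of which the last 2 overlapped. The level of CYP51A1 is uncertain, since 68.2% of its exonic bases are overlapped by other annotated genes on the same strand and 90.5% of the 50-base stretches of its transcript occur in transcripts of other genes. The same holds in part for EBP, with 36.4% and 55.1%, and for HSD17B7, where 47.9% of the stretches are shared with other genes, among them the pseudogene HSD17B7P2.

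The windows around transcription starts describe these genes by letters that their selection did not use. RefSeq windows on GRCh38.p14, from 250 bases before to 50 bases after a start, were given for 31 of the 36 genes, with 43 windows in all. The box CCAAT, the sequence bound by NF-Y, a partner of SREBPs, was found on either strand in 21 of the 31 genes (67.7%) and in 58.1% of their windows, against 39.7% of all 27305 genes and 34.6% of all 35116 windows. All genes here means every gene with a RefSeq window, whether or not it is in the table. The share among the genes of the table alone was not computed, so a difference tied to being expressed cannot be told apart. The letters TCACNCCAC, a form of the sterol regulatory element, occurred in the window of SREBF2 alone, 1 of 31 genes (3.23%), against 1.39% of all genes. CACGTG, the palindromic E-box, occurred in ABCA1, INSIG1, LSS, SC5D and SCAP, 5 of 31 genes (16.1%), against 8.77% of all genes. TCACNCCAC, CACGTG and CCAAT do not contain each other. The windows of 5 genes are printed on the strand of the gene because their transcripts carry the results below: SREBF2 as the gene with the sterol element, MVK and SCD as genes that were lower with doxorubicin, and IDI1 and MYLIP as genes that were higher with doxorubicin in siNT cells. Capitals mark TCACNCCAC and CCAAT, the latter reading ATTGG where it lies on the other strand. For IDI1, which has 3 windows, the one with the most CCAAT boxes is shown.
SREBF2 (chr22:41832855-41833154, + strand): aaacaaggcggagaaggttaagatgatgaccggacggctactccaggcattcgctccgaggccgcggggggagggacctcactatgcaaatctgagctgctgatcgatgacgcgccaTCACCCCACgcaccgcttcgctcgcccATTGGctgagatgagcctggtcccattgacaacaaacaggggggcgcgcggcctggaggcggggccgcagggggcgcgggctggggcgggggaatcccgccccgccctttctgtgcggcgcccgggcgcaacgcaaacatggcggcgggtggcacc
MVK (chr12:109573544-109573843, + strand): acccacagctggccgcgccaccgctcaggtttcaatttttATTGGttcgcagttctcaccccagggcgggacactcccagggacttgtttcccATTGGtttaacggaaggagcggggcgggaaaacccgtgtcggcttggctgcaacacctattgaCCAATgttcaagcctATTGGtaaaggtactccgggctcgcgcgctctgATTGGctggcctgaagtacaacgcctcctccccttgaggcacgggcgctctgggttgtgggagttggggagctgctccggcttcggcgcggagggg
IDI1 (chr10:1048837-1049136, minus strand): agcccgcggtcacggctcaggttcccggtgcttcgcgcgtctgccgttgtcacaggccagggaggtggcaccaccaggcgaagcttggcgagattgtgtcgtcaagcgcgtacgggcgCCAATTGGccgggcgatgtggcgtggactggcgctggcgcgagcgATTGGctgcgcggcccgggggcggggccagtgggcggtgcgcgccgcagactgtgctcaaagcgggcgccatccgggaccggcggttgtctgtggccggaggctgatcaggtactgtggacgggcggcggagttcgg
SCD (chr10:100346983-100347282, + strand): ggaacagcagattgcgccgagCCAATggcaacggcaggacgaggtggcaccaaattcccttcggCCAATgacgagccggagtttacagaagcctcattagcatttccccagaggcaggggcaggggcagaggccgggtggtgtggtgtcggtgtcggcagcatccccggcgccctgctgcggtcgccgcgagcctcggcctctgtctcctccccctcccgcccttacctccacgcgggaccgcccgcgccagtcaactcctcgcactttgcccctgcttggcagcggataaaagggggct
MYLIP (chr6:16128836-16129135, + strand): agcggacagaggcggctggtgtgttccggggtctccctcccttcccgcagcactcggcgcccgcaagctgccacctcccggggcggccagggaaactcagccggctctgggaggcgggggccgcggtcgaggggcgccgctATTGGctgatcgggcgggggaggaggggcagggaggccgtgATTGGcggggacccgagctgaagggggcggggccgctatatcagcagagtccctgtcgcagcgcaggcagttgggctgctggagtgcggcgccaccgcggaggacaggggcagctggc
MVK held 5 CCAAT boxes in these 300 bases, IDI1 held 3, of which 2 overlap, SCD and MYLIP held 2 each, and SREBF2 held 1 after its sterol element. Genes of either direction of change had the box. Of the genes with a window, 9 of 10 that were lower with doxorubicin in siNT cells held it, as did 4 of 4 that were higher and 8 of 17 that did not pass the test. A match is a description of letters and says nothing of binding, and no match says only that the letters are missing from this window.

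Many sterol and fatty acid genes were lower with doxorubicin in both siRNA backgrounds. A gene is said to have risen or fallen where limma's adjusted p over all 17013 genes was under 0.01 and the absolute log2 fold change was over 0.75. In siNT cells 14 of the 36 genes fell and 4 rose, whereas 10.6% of all genes tested fell and 12.1% rose. In siMLK4 cells 14 fell and 1 rose, against 10.6% and 12.6% of all genes. Their median log2 fold change was −0.44 in siNT and −0.36 in siMLK4 cells, beside a median of 0.0046 and 0.018 over all genes. The 2 responses use separate libraries throughout, and 14 genes passed in both in the same direction (77.8% of the 18 that passed in siNT cells and 93.3% of the 15 in siMLK4 cells). Over all genes 2792 passed in both in the same direction, which is 72.4% of the 3859 that passed in siNT cells and 70.7% of the 3949 in siMLK4 cells. These were SREBF1, ACAT2, MVK, FDFT1, SQLE, LSS, MSMO1, HSD17B7, DHCR7, STARD4, ACACA, FASN and SCD, which fell, and TM7SF2, which rose. In each of the siNT doxorubicin libraries 30 or 31 genes lay below the siNT vehicle mean, against 49.4% to 49.9% of all genes. Against the same mean 29 genes lay lower in each of the siMLK4 doxorubicin libraries, which adds the siRNA to the drug, and 20 to 23 did in the siMLK4 vehicle libraries and 11 to 20 in the siNT vehicle libraries themselves. Of all genes 48.3% to 48.8%, 48.1% to 48.4% and 47.9% to 50.8% lay lower in these groups, in that order. Because RNA of whole cultures was measured, less RNA per cell and fewer cells making it cannot be told apart. When libraries are scaled by their total reads instead, the median of all genes moves by 0.18 in siNT and 0.14 in siMLK4 cells, that of the 36 genes becomes −0.21 in both, and 11 of the 36 genes fell and 4 rose in siNT cells, against 6.43% and 16.7% of all genes under that scaling. Likewise 12 fell and 3 rose in siMLK4 cells, against 7.49% and 17% of all genes, and MYLIP, at 0.81, and ACLY, at 0.92, then passed there as well as TM7SF2.

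**Figure D1:**
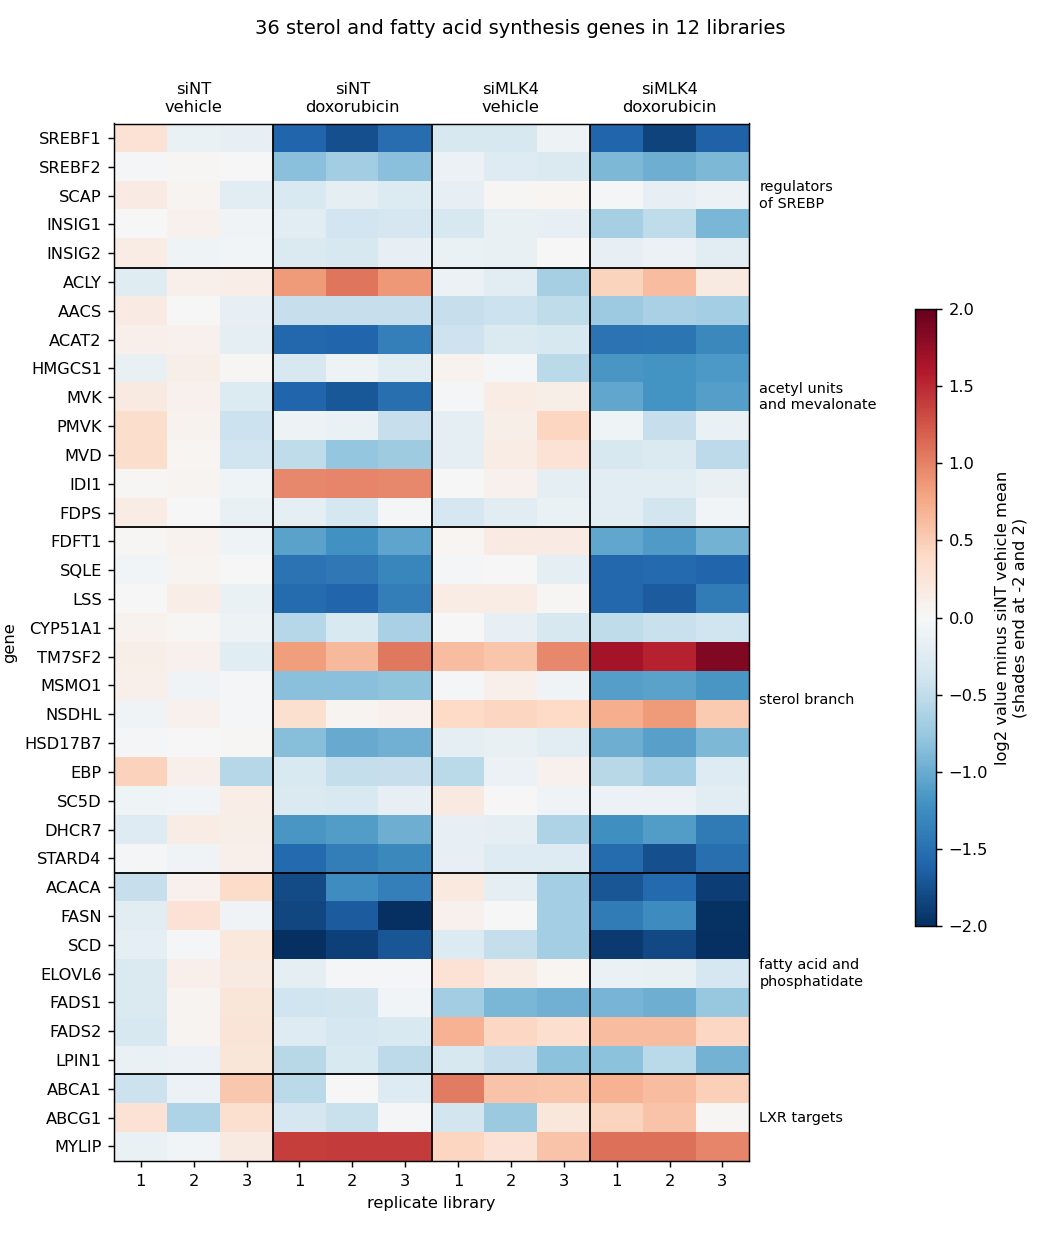
Values of the 36 genes (rows, grouped by role) in the 12 libraries (columns, 3 per group), as log2 values minus the mean of the siNT vehicle libraries, with shades that end at −2 and 2. In every doxorubicin library at least 29 of the 36 genes lie below that mean, against 48.3% to 49.9% of all genes. In the siMLK4 vehicle libraries 20 to 23 do, against 48.1% to 48.4% of all genes. IDI1 is high only in the siNT doxorubicin columns.

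**Figure D2:**
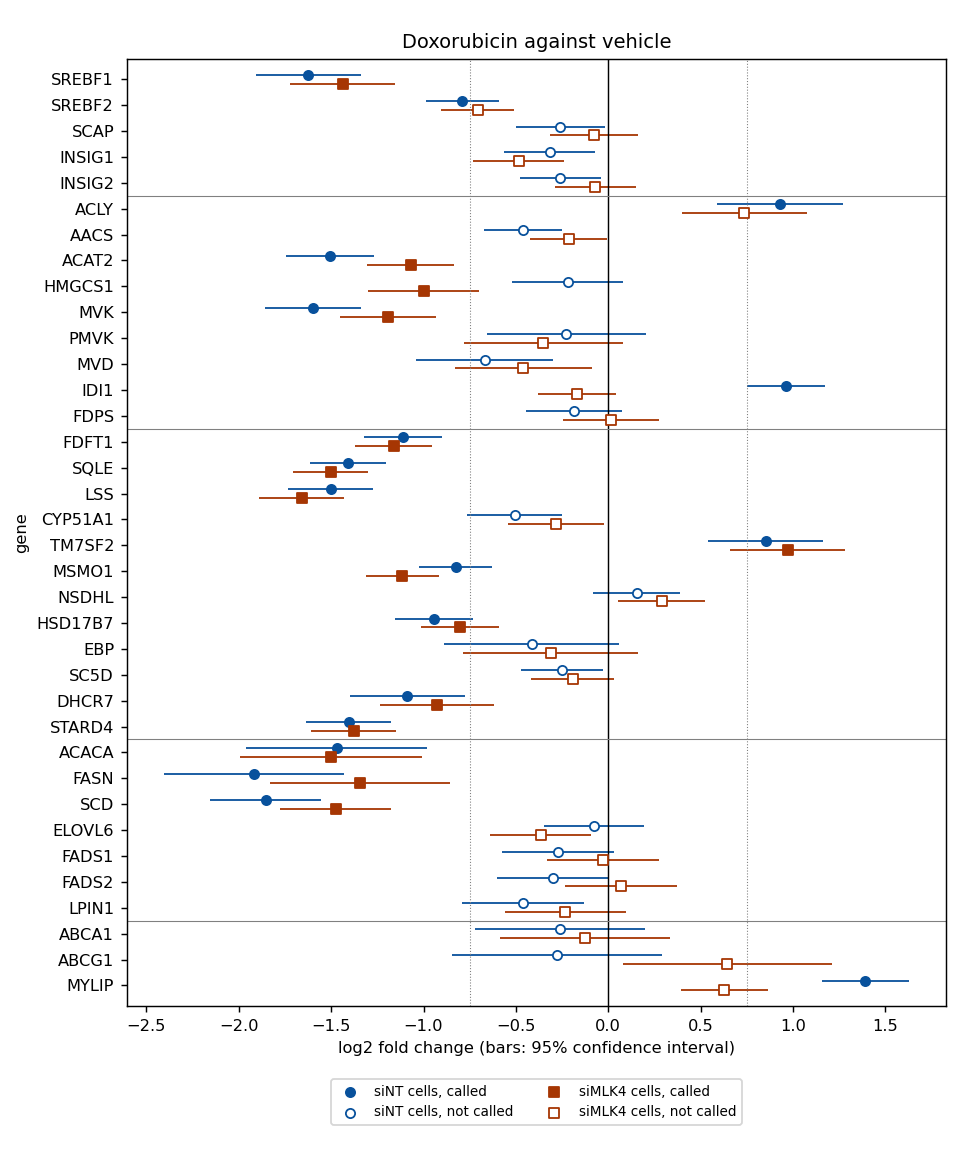
Log2 fold change of doxorubicin against vehicle for each gene in siNT cells (circles) and siMLK4 cells (squares), with 95% confidence intervals, filled where the gene passed the test, and dotted lines at the fold threshold of 0.75. Of the 36 genes 14 pass on the left in each background, and on the right TM7SF2 passes in both and IDI1, MYLIP and ACLY pass in siNT cells, of which MYLIP and ACLY also pass in siMLK4 cells when libraries are scaled by their totals.

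Among the 5 regulators, the genes for both SREBPs fell in siNT cells. Normalized reads of SREBF1 were 2738, 2024 and 1986 in siNT vehicle, 707, 619.9 and 736 in siNT doxorubicin, 1770.4, 1778 and 2067 in siMLK4 vehicle and 706, 579.5 and 689 in siMLK4 doxorubicin libraries. Every doxorubicin library lay below every vehicle library of the same siRNA. On the log2 scale doxorubicin minus vehicle was −1.62 (SE 0.13, adjusted p = 3.8e-07) in siNT and −1.44 (SE 0.13, adjusted p = 1.1e-06) in siMLK4 cells, so that the doxorubicin means were 30.6% and 35.2% of the vehicle means. SREBF2 counted 3206, 3285 and 3248 normalized reads under siNT with vehicle, 1790.3, 1988 and 1791 under siNT with doxorubicin, 2981, 2714 and 2651 under siMLK4 with vehicle and 1708, 1630.2 and 1707 under siMLK4 with doxorubicin. Its libraries were likewise separate in both backgrounds, at −0.79 (SE 0.09, adjusted p = 7.4e-06) in siNT and −0.71 (SE 0.09, adjusted p = 1.9e-05) in siMLK4 cells, where the size stayed under the threshold of 0.75. In siNT cells SREBF2 does not pass with library totals as scaling, at −0.55. SCAP stood at 764, 710.1 and 578 normalized reads with vehicle and 539, 588 and 553 with doxorubicin in the siNT libraries, and at 603, 692 and 702 with vehicle and 657, 605 and 619.7 with doxorubicin in the siMLK4 libraries. The groups overlapped in both backgrounds, and SCAP, the escort of the SREBPs, did not pass in either background, at −0.26 (SE 0.11, adjusted p = 0.061) and −0.08 (SE 0.11, adjusted p = 0.57). Normalized reads of INSIG1 were 843, 903 and 805 in siNT vehicle, 724, 636 and 659 in siNT doxorubicin, 668, 759 and 751 in siMLK4 vehicle and 517, 579 and 426 in siMLK4 doxorubicin libraries. INSIG1, which holds SCAP back and is itself an SREBP target, had lower values in all doxorubicin libraries than in the vehicle libraries of the same siRNA, at −0.32 (SE 0.11, adjusted p = 0.029) and −0.48 (SE 0.11, adjusted p = 0.0025), both under the fold threshold. INSIG2 counted 546, 457 and 469 normalized reads under siNT with vehicle, 390.4, 381 and 432 under siNT with doxorubicin, 443, 437 and 484 under siMLK4 with vehicle and 431, 446 and 416 under siMLK4 with doxorubicin. INSIG2, the other retention protein, had separate groups in siNT cells and overlapping ones in siMLK4 cells. On the log2 scale the change was −0.26 (SE 0.10, adjusted p = 0.042) in siNT cells and −0.07 (SE 0.10, adjusted p = 0.58) in siMLK4 cells, so it did not pass.

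Of the 9 genes from acetyl units to farnesyl diphosphate, 2 fell and 2 rose in siNT cells, against 10.6% and 12.1% of all genes. In siMLK4 cells 3 fell and 0 rose, against 10.6% and 12.6% of all genes. MVK stood at 1111, 1035 and 800.4 normalized reads with vehicle and 289, 265 and 310.2 with doxorubicin in the siNT libraries, and at 954, 1086 and 1054 with vehicle and 444, 398 and 425 with doxorubicin in the siMLK4 libraries. MVK, mevalonate kinase, lay lower in every doxorubicin library, at −1.60 (SE 0.12, adjusted p = 2.1e-07) in siNT and −1.19 (SE 0.12, adjusted p = 2.4e-06) in siMLK4 cells. Normalized reads of ACAT2 were 1932, 1906 and 1579.5 in siNT vehicle, 570.3, 566 and 665 in siNT doxorubicin, 1337, 1469 and 1436 in siMLK4 vehicle and 614, 619.5 and 708 in siMLK4 doxorubicin libraries. ACAT2, the cytosolic thiolase that starts the mevalonate route, showed the same separation and fell by 1.51 (SE 0.11, adjusted p = 1.5e-07) and 1.07 (SE 0.11, adjusted p = 2.7e-06) on the log2 scale. ACLY counted 4408, 5621 and 5734 normalized reads under siNT with vehicle, 9486, 10997 and 9561 under siNT with doxorubicin, 4790.2, 4503 and 3289.8 under siMLK4 with vehicle and 7094, 7989.9 and 5891 under siMLK4 with doxorubicin. ACLY, which makes cytosolic acetyl-CoA from citrate, was higher in every doxorubicin library than in the vehicle libraries of its siRNA, at 0.93 (SE 0.16, adjusted p = 2e-04) in siNT cells, where it rose, and 0.74 (SE 0.16, adjusted p = 0.0012) in siMLK4 cells, where the fold change stayed just under the threshold. Without siMLK4 vehicle library 1 or 2 or siMLK4 doxorubicin library 3, ACLY passes in siMLK4 cells too, at 0.84, 0.80 and 0.85. AACS, PMVK, MVD and FDPS did not pass in either background, with log2 fold changes in siNT cells of −0.46, −0.23, −0.67 and −0.18 and in siMLK4 cells of −0.21, −0.35, −0.46 and 0.01. Of these, MVD, mevalonate diphosphate decarboxylase, passes in siNT cells without siNT vehicle library 3, at −0.87. The remaining genes of this stretch, IDI1 and HMGCS1, are described with the difference of responses.

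The sterol branch from squalene to cholesterol held the most genes that fell, 7 of 12 in each background, against 10.6% of all genes in each. Its median log2 fold change was −0.88 in siNT and −0.86 in siMLK4 cells, beside 0.0046 and 0.018 over all genes. LSS stood at 1613, 1762 and 1466 normalized reads with vehicle and 520.5, 499 and 585 with doxorubicin in the siNT libraries, and at 1795, 1797 and 1642 with vehicle and 505, 471 and 575 with doxorubicin in the siMLK4 libraries. LSS, lanosterol synthase, had separate groups and doxorubicin means at 33.1% and 29.6% of vehicle, with −1.50 (SE 0.11, adjusted p = 1.4e-07) in siNT and −1.66 (SE 0.11, adjusted p = 8e-08) in siMLK4 cells. Normalized reads of SQLE were 5790.2, 6205 and 5969 in siNT vehicle, 2106, 2189 and 2383 in siNT doxorubicin, 5887, 6011 and 5217 in siMLK4 vehicle and 1977, 1992 and 1957 in siMLK4 doxorubicin libraries. SQLE, squalene epoxidase, was separate in the same way, at −1.41 (SE 0.10, adjusted p = 8.4e-08) and −1.50 (SE 0.10, adjusted p = 7e-08). FDFT1, squalene synthase, fell by 1.11 (SE 0.10) in siNT and 1.16 (SE 0.10) in siMLK4 cells. STARD4, a carrier of cholesterol between membranes, fell by 1.41 (SE 0.11) and 1.38 (SE 0.11). DHCR7, which makes cholesterol from its last precursor, fell by 1.09 (SE 0.14) and 0.93 (SE 0.14). MSMO1, the sterol methyl oxidase, fell by 0.83 (SE 0.09) and 1.11 (SE 0.09). HSD17B7, a sterol ketoreductase, fell by 0.94 (SE 0.10) and 0.80 (SE 0.10). With library totals as scaling MSMO1 and HSD17B7 do not pass in siNT cells, nor HSD17B7 and DHCR7 in siMLK4 cells.

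Other genes of the sterol branch did not fall. TM7SF2 counted 196, 192 and 147 normalized reads under siNT with vehicle, 357, 307 and 422 under siNT with doxorubicin, 298, 285 and 390.3 under siMLK4 with vehicle and 669, 607 and 771 under siMLK4 with doxorubicin. TM7SF2, a sterol reductase that acts beside LBR on the same double bond, was higher in every doxorubicin library than in the vehicle libraries of its siRNA. It rose by 0.85 (SE 0.15, adjusted p = 0.00021) in siNT and 0.97 (SE 0.15, adjusted p = 6.9e-05) in siMLK4 cells. In siNT cells the value sits at the threshold without vehicle library 3, at 0.748, or doxorubicin library 3, at 0.7498, and does not pass. NSDHL, which removes the methyl groups together with MSMO1, had 0.15 and 0.29, EBP, the sterol isomerase, −0.42 and −0.31, and SC5D, the sterol desaturase, −0.25 and −0.19 in siNT and siMLK4 cells, and none of these passed with limma or with limma-voom. CYP51A1, at −0.51 and −0.28, has few reads, and in siNT cells it passes on log2(normalized reads + 1), at −1.21, and with limma-voom, at −1.25.

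In fatty acid synthesis the 3 enzymes of the central steps fell in both backgrounds. SCD stood at 14718, 16314 and 19348 normalized reads with vehicle and 4141, 4548 and 5079.5 with doxorubicin in the siNT libraries, and at 13760.4, 11946 and 10426 with vehicle and 4375, 4729 and 3753 with doxorubicin in the siMLK4 libraries. The doxorubicin means of SCD lay at 27.3% of vehicle in siNT and 35.6% in siMLK4 cells, without overlap. Its log2 fold change came to −1.85 (SE 0.14, adjusted p = 2e-07) in siNT cells and −1.48 (SE 0.14, adjusted p = 1.3e-06) in siMLK4 cells. Normalized reads of FASN were 6054, 8516 and 6640.3 in siNT vehicle, 1936, 2164 and 1415 in siNT doxorubicin, 7454, 6967 and 4367 in siMLK4 vehicle and 2628, 2894 and 1746 in siMLK4 doxorubicin libraries. FASN, the fatty acid synthase, varied between libraries within a group, yet the highest doxorubicin library stayed below the lowest vehicle library in both backgrounds. It fell by 1.92 (SE 0.23, adjusted p = 8.8e-06) in siNT and 1.34 (SE 0.23, adjusted p = 0.00018) in siMLK4 cells. ACACA counted 2401, 3501 and 4309 normalized reads under siNT with vehicle, 915, 1370.2 and 1246 under siNT with doxorubicin, 3812, 2932 and 2038 under siMLK4 with vehicle and 973, 1089 and 856 under siMLK4 with doxorubicin. ACACA, the acetyl-CoA carboxylase that makes malonyl-CoA, had a wide spread among vehicle libraries, in the order of the length slopes given above, and groups that did not overlap. Its log2 fold change was −1.47 (SE 0.23, adjusted p = 9.3e-05) in siNT and −1.50 (SE 0.23, adjusted p = 7.8e-05) in siMLK4 cells, and with the length slope in the fit the value in siMLK4 cells was −1.51. The elongase ELOVL6, the desaturases FADS1 and FADS2 and the phosphatidate phosphatase LPIN1 did not pass in either background, with values from −0.46 for LPIN1 to −0.08 for ELOVL6 in siNT cells and from −0.37 for ELOVL6 to 0.07 for FADS2 in siMLK4 cells.

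**Figure D3:**
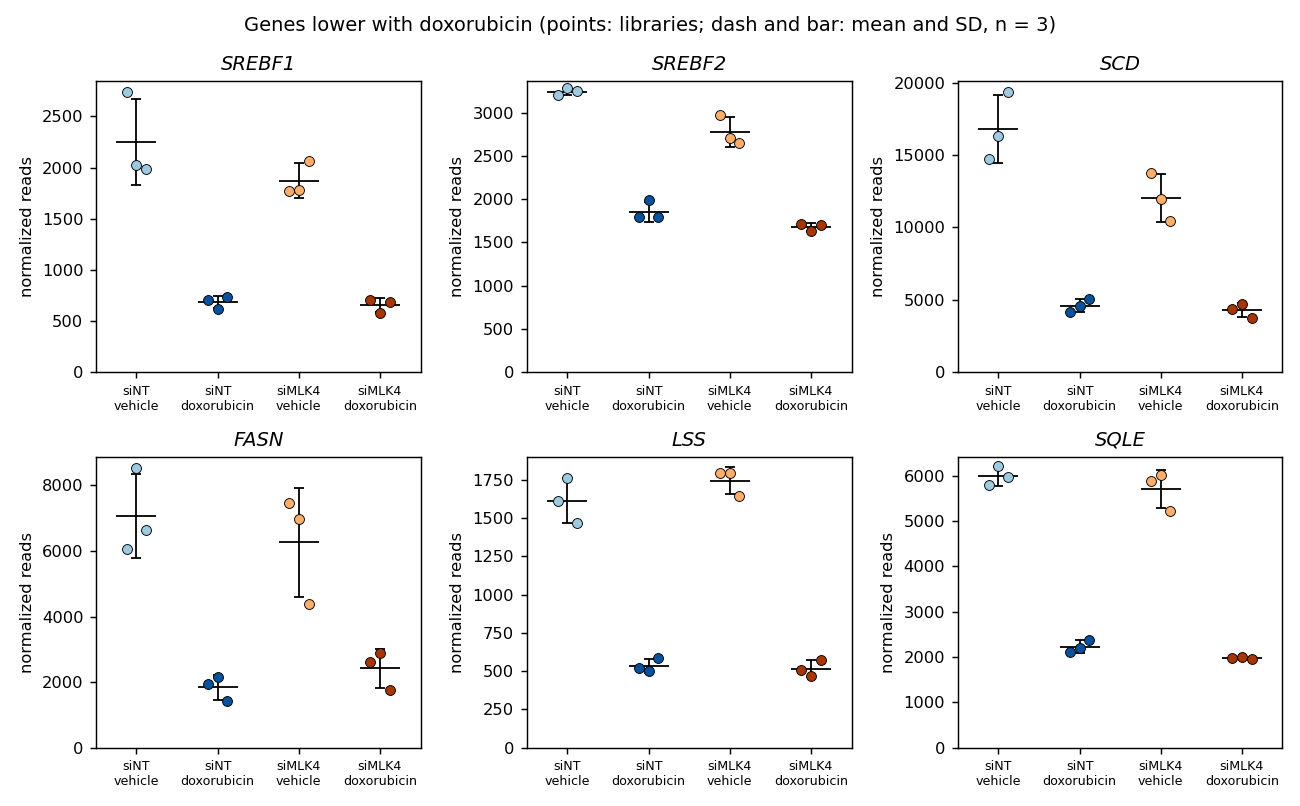
Normalized reads of SREBF1, SREBF2, SCD, FASN, LSS and SQLE in each library (points), with the mean and SD of the 3 libraries of each group. In both siNT and siMLK4 cells every doxorubicin point lies below every vehicle point, with SCD at 27.3% and 35.6% of its vehicle mean.

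The 3 LXR targets did not move as 1 group. MYLIP, a ubiquitin ligase that degrades lipoprotein receptors, rose in siNT cells and is described below. ABCA1 had log2 fold changes of −0.26 (SE 0.22) in siNT and −0.12 (SE 0.22) in siMLK4 cells, and its groups overlapped. ABCG1, a partner exporter, had −0.28 (SE 0.26) in siNT and 0.65 (SE 0.26, adjusted p = 0.049) in siMLK4 cells, where it passes without siMLK4 vehicle library 3, at 0.91.

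To see how these genes differed between siRNAs without drug, siMLK4 vehicle libraries were compared with siNT vehicle libraries. FADS1 was the gene that passed, and it was lower in siMLK4 cells. Cell markers also differed between these groups, with KRT6A and KRT14 of the 7 basal markers lower, at −1.19 and −1.05, and the fibroblast marker COL1A1 higher, at 0.78. The other basal markers did not pass and went both ways, with −0.66 for KRT17, −0.62 for EPCAM, 0.10 for CDH3, 0.38 for CDH1 and 0.64 for KRT5. The part of these markers in the values below was not tested. In limma's test 1 of 36 genes was lower, against 3.14% of all genes, and 0 were higher, against 2.51% of all genes. At an unadjusted p under 0.05, 7 of 36 were lower, against 18.1% of all genes, and 5 of 36 were higher, against 19% of all genes. Limma-voom called 1 lower and 1 higher, and 697 and 786 of all genes. The median over the 36 genes was −0.17, and that over all genes 0.012. The former was −0.098 without siNT vehicle library 1, −0.053 without siMLK4 vehicle library 3 and −0.041 with library totals as scaling. FADS1 counted 2425, 3089.6 and 3532 normalized reads under siNT with vehicle, 2254, 2309 and 2852 under siNT with doxorubicin, 1811, 1560.4 and 1502 under siMLK4 with vehicle and 1544, 1483 and 1746 under siMLK4 with doxorubicin. FADS1, the delta-5 desaturase that makes arachidonic acid, was lower in every siMLK4 vehicle library than in every siNT vehicle library, at −0.86 (SE 0.14, adjusted p = 6e-04). FADS1 does not pass without siNT vehicle library 3, at −0.74, nor with library totals as scaling, at −0.72, nor with only the groups compared in the fit, where the adjusted p was 0.013, within a range of 2.9e-05 to 0.013 over its 21 alternatives. TM7SF2 had 0.71 (SE 0.15, adjusted p = 0.0029), just under the fold threshold, and passes without siNT vehicle library 1 or 2 or siMLK4 vehicle library 1 or 2, at 0.77, 0.76, 0.76 and 0.79, and also with library totals as scaling, at 0.82, on log2(normalized reads + 1), at 0.86, and with limma-voom, at 0.85. ABCA1 had 0.72 (SE 0.22, adjusted p = 0.024) and passes without siNT vehicle library 3, at 0.99, and with the length slope in the fit, at 0.76. The 5 regulators had log2 fold changes from −0.25 for SREBF1 to −0.03 for SCAP, and none passed with limma or limma-voom. LPIN1, SCD and AACS, at −0.53 (SE 0.15), −0.48 (SE 0.14) and −0.47 (SE 0.10), had values in siMLK4 vehicle libraries that lay below every siNT vehicle library and stayed under the fold threshold. The same held for ACAT2, STARD4, SREBF2, INSIG1 and HSD17B7, at −0.34, −0.22, −0.22, −0.21 and −0.18. Limma's adjusted p for these was 0.037, 0.15, 0.093, 0.19 and 0.2, in that order. FADS2, MYLIP and NSDHL, at 0.48, 0.43 and 0.41, lay above every siNT vehicle library, also under the fold threshold. The share of all genes whose libraries separate like this is not given here, so these separations cannot be set against it.

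With doxorubicin 2 genes of the mevalonate route were lower in siMLK4 than in siNT cells, and 3 genes were higher. The counts were 2 of 36 lower, against 2.93% of all genes, and 3 of 36 higher, against 2.66%. The median was −0.053 over the 36 genes and 0.023 over all genes. Its sign is not stable, since it was 0.027 with library totals as scaling and 0.012 without siMLK4 doxorubicin library 2, and it was −0.094 without siNT doxorubicin library 2 and −0.083 without siMLK4 doxorubicin library 3. The basal markers KRT6A, KRT14 and KRT17 were lower in siMLK4 cells in this comparison too, at −1.03, −1.26 and −0.82, and those that did not pass were EPCAM, at −0.63, KRT5, at −0.32, CDH3, at 0.19, and CDH1, at 0.31. Their part was not tested. The lower genes were IDI1, isopentenyl diphosphate isomerase, at −1.16 (SE 0.10, adjusted p = 4.2e-06), and HMGCS1, the HMG-CoA synthase of the cytosol, at −0.95 (SE 0.14, adjusted p = 3e-04). TM7SF2 was higher at 0.83 (SE 0.15, adjusted p = 0.001), but does not pass without siNT doxorubicin library 2, at 0.73, or siMLK4 doxorubicin library 3, at 0.745. FADS2 stood at 360.5, 485 and 565 normalized reads with vehicle and 378, 355 and 367 with doxorubicin in the siNT libraries, and at 778, 636 and 596 with vehicle and 734, 739.6 and 635 with doxorubicin in the siMLK4 libraries. FADS2, the delta-6 desaturase and neighbour of FADS1 on chromosome 11, was higher in all siMLK4 libraries than in all siNT libraries at either treatment, at 0.48 (SE 0.14, adjusted p = 0.023) with vehicle and 0.85 (SE 0.14, adjusted p = 0.00072) with doxorubicin, where it passed. FADS1 had −0.61 (SE 0.14, adjusted p = 0.0059) in the same comparison, under the fold threshold. ABCA1 counted 79.8, 110.0 and 199 normalized reads under siNT with vehicle, 70.1, 124 and 95.3 under siNT with doxorubicin, 301, 205 and 202 under siMLK4 with vehicle and 226, 213 and 189.6 under siMLK4 with doxorubicin. The doxorubicin groups of ABCA1 did not overlap, at 0.86 (SE 0.22, adjusted p = 0.0099). This call is at the edge of the threshold. With replicate number as a block the adjusted p of ABCA1 was 0.018, and over its 21 alternatives it ranged from 0.00025 to 0.046. ABCA1 does not pass when any 1 of the 6 doxorubicin libraries is left out, at 0.72, 1.00, 0.86, 0.81, 0.85 and 0.92 for siNT libraries 1, 2 and 3 and siMLK4 libraries 1, 2 and 3, nor without siNT or siMLK4 vehicle library 2. ABCG1, NSDHL and MVK, at 0.62 (SE 0.26), 0.55 (SE 0.11) and 0.48 (SE 0.12), had higher values in all siMLK4 than in all siNT doxorubicin libraries, and ACLY, at −0.52 (SE 0.16), had lower ones, and all 4 stayed under the fold threshold. Smaller decreases without overlap were seen in INSIG1, MSMO1, AACS, SQLE and SREBF2, at −0.38, −0.29, −0.22, −0.17 and −0.14. Limma's adjusted p for these was 0.026, 0.035, 0.12, 0.23 and 0.3, in that order. SCAP, at 0.15 (adjusted p = 0.36), was higher without overlap. How many of all genes separate without overlap in this comparison is not given here.

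**Figure D4:**
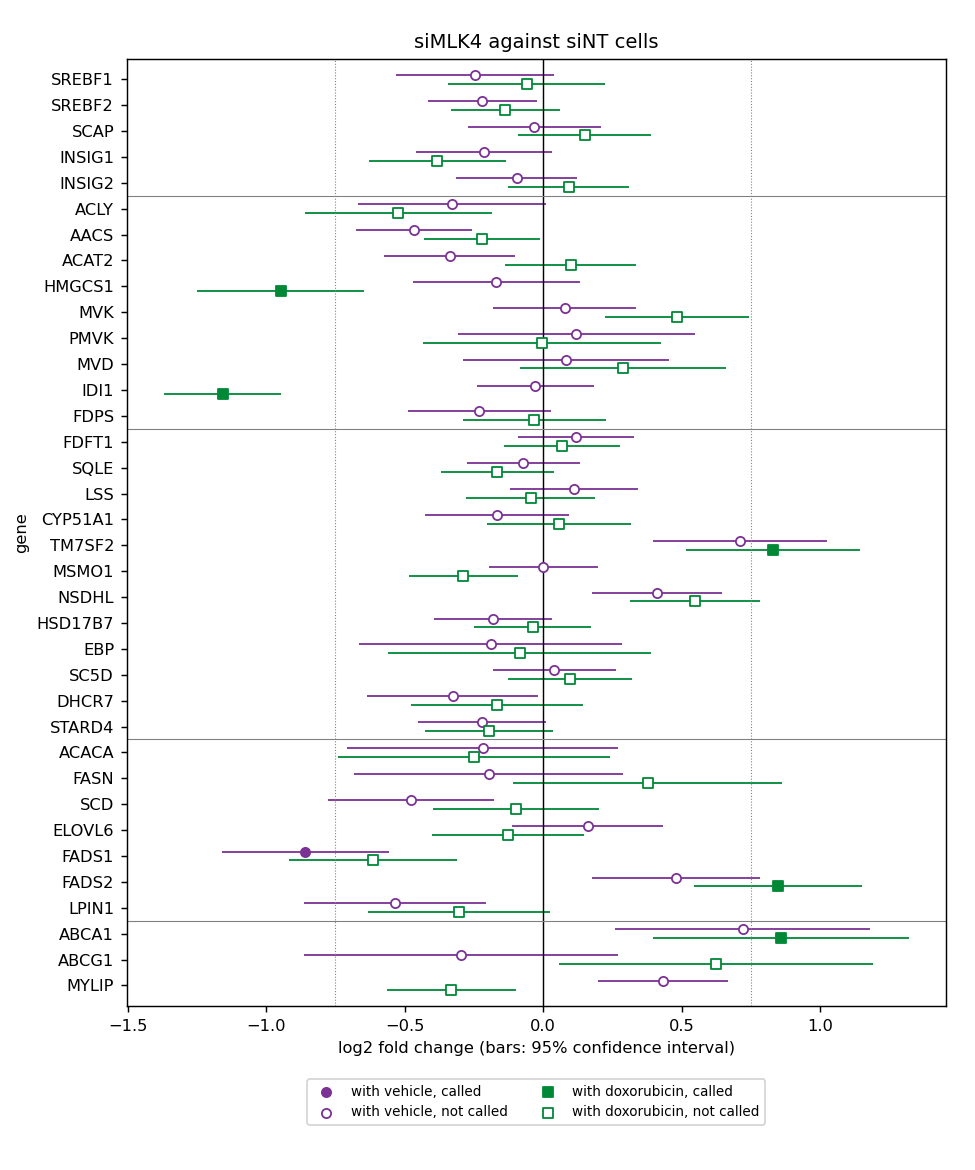
Log2 fold change of siMLK4 against siNT cells for each gene with vehicle (circles) and with doxorubicin (squares), with 95% confidence intervals, filled where the gene passed the test, and dotted lines at 0.75. The filled points are FADS1 with vehicle on the left, IDI1 and HMGCS1 with doxorubicin on the left, and TM7SF2, FADS2 and ABCA1 with doxorubicin on the right.

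Whether the response to doxorubicin itself differed between siRNAs was tested as the response in siMLK4 cells minus that in siNT cells. IDI1 was the gene that passed. Its count is 1 of 36 lower, against 0.176% of all genes, and 0 of 36 higher, against 0.0999% of all genes, by limma. At an unadjusted p under 0.05, 4 of 36 were lower, against 7.07% of all genes, and 3 of 36 were higher, against 7.45%. Limma-voom called 1 lower and 0 higher, and 17 and 12 of all genes. At an adjusted p under 0.05 with no fold threshold, 2 of the 36 genes and 1.2% of all genes differed. IDI1 stood at 3856, 3920.2 and 3552 normalized reads with vehicle and 7355, 7476 and 7369 with doxorubicin in the siNT libraries, and at 3804, 4026 and 3303 with vehicle and 3249, 3211 and 3406 with doxorubicin in the siMLK4 libraries. The 3 siNT doxorubicin libraries of IDI1 stood well above the other 9, which overlapped between siNT and siMLK4 vehicle, and the siMLK4 doxorubicin mean was 88.6% of its vehicle mean. The response was 0.96 (SE 0.10, adjusted p = 2.7e-06) in siNT cells, where IDI1 rose, and −0.17 (SE 0.10, adjusted p = 0.16) in siMLK4 cells, and the difference was −1.13 (SE 0.14, adjusted p = 0.0023). IDI1 is no longer called without siNT doxorubicin library 1 or 2 or siMLK4 doxorubicin library 1, where the difference was −1.13, −1.12 and −1.12. Its adjusted p ranged from 0.00012 to 0.016 over the 20 alternatives.

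MYLIP counted 459, 489 and 584 normalized reads under siNT with vehicle, 1404, 1423 and 1428 under siNT with doxorubicin, 701, 634 and 784 under siMLK4 with vehicle and 1152, 1149.9 and 1049.7 under siMLK4 with doxorubicin. MYLIP was higher in all doxorubicin libraries than in the vehicle libraries of its siRNA, higher in siMLK4 than in siNT cells with vehicle and lower with doxorubicin, without overlap. Its response was 1.39 (SE 0.11, adjusted p = 2.7e-07) in siNT cells, where it rose, and 0.63 (SE 0.11, adjusted p = 0.00024) in siMLK4 cells, under the fold threshold. The difference was −0.76 (SE 0.15, adjusted p = 0.028), with an adjusted p above 0.01. HMGCS1 stood at 4826, 5842 and 5472 normalized reads with vehicle and 4277, 4979 and 4579 with doxorubicin in the siNT libraries, and at 5621, 5219 and 3688 with vehicle and 2376, 2322 and 2381 with doxorubicin in the siMLK4 libraries. HMGCS1 overlapped between vehicle and doxorubicin in siNT cells, at −0.22 (SE 0.14, adjusted p = 0.2), and in siMLK4 cells all doxorubicin libraries lay below all vehicle libraries, at −0.998 (SE 0.14, adjusted p = 3.8e-05), where it fell. The difference of −0.78 (SE 0.20, adjusted p = 0.073) did not pass, and it does without siMLK4 vehicle library 3, at −0.96. With the length slope of each library in the fit the differences of IDI1, MYLIP and HMGCS1 all pass, at −1.14, −0.77 and −0.82. That fit was chosen after seeing the data, and the number of all genes that pass under it is not given here. ACAT2 had the smallest p among genes whose fall was smaller in siMLK4 cells, with a difference of 0.44 (SE 0.16, adjusted p = 0.2), which did not pass. None of the remaining 32 genes passed with limma or limma-voom, and ABCG1, MVK and MSMO1 were the others with an unadjusted p under 0.05. A p that misses the threshold does not show equal responses, and the intervals were wide for some genes. For SREBF1 the 95% confidence interval of the difference was −0.22 to 0.59, for LSS −0.49 to 0.17, and for FASN −0.113 to 1.262.

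**Figure D5:**
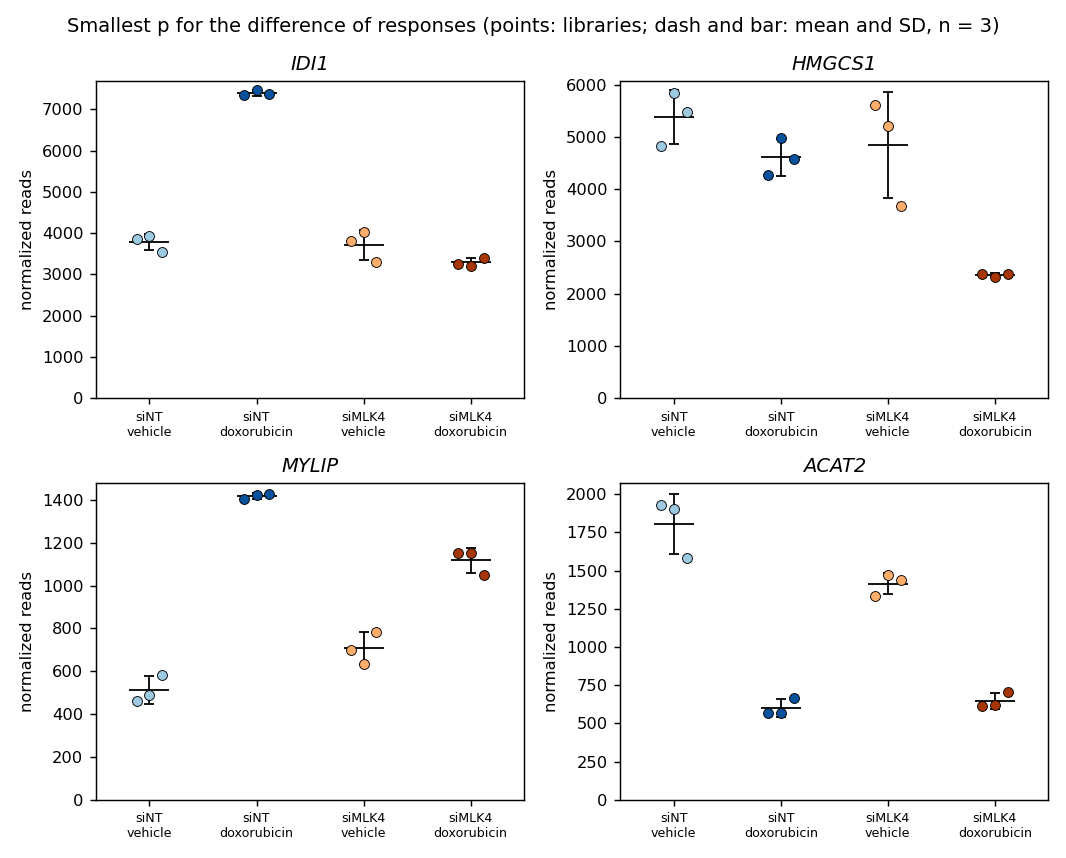
Normalized reads of IDI1, HMGCS1, MYLIP and ACAT2, the 4 genes with the smallest p for the difference of doxorubicin responses, in each library (points) with mean and SD of 3 libraries per group. IDI1 is near 7399.9 in siNT doxorubicin libraries and between 3211 and 4026 in all others, and HMGCS1 is lowest in siMLK4 doxorubicin libraries.

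Other genes of these pathways were read from 3 lists that hold 59 genes, 19 of sterol sensing, esterification and transport, 24 fatty acid and glycerolipid enzymes and 16 of the isoprenoid branches and sterol co-enzymes, all of them in the table. With doxorubicin 5 of 59 fell and 4 rose in siNT cells, and 5 fell and 3 rose in siMLK4 cells, with medians of −0.21 and −0.081, which are shares below those of all genes in both directions. In siNT cells RXRA, the partner receptor of LXR, fell by 2.28 (SE 0.10), EBPL, a relative of EBP, by 0.89 (SE 0.18), and the acyl-CoA synthetase ACSL5 by 0.87 (SE 0.14). The phosphatidate phosphatase LPIN2 rose by 1.45 (SE 0.15), the desaturase SCD5 by 1.01 (SE 0.14) and the elongase ELOVL4 by 1.00 (SE 0.11). In siMLK4 cells RXRA fell by 1.98 (SE 0.10), ME1, the malic enzyme that supplies NADPH, by 1.16 (SE 0.11) and EBPL by 0.94 (SE 0.18), while LPIN2 rose by 1.84 (SE 0.15), NR1H3, the gene for LXRα, by 1.12 (SE 0.12) and the elongase ELOVL7 by 0.77 (SE 0.15). ME1 and NR1H3 passed in siNT cells as well, at −0.80 (SE 0.11) and 0.95 (SE 0.12).

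Between siRNAs, with vehicle, 4 of these 59 genes were lower in siMLK4 cells, against 3.14% of all genes, and 1 was higher, against 2.51%. With doxorubicin 4 were lower, against 2.93% of all genes, and 2 were higher, against 2.66%. These comparisons share no library. ACSL4 counted 517, 570.0 and 633 normalized reads under siNT with vehicle, 834, 1027 and 784 under siNT with doxorubicin, 75.1, 74.7 and 87.6 under siMLK4 with vehicle and 116, 163 and 121 under siMLK4 with doxorubicin. ACSL4, which activates arachidonic acid, lay lower in every siMLK4 library than in every siNT library, at −2.29 (SE 0.13, adjusted p = 1.3e-07) with vehicle and −2.35 (SE 0.13, adjusted p = 2.6e-07) with doxorubicin. Of the related synthetases, ACSL5 was also lower with vehicle, at −0.79 (SE 0.14, adjusted p = 0.0011), and had −0.66 (SE 0.14, adjusted p = 0.0037) with doxorubicin, under the fold threshold, whereas ACSL1 and ACSL3 did not pass, at 0.02 and 0.18 with vehicle. PGGT1B stood at 971, 885 and 885 normalized reads with vehicle and 690.3, 767 and 789 with doxorubicin in the siNT libraries, and at 276, 237 and 219 with vehicle and 181, 219 and 245 with doxorubicin in the siMLK4 libraries. PGGT1B, a subunit of a protein prenyltransferase, was separate in the same way, at −1.71 (SE 0.12, adjusted p = 5.7e-07) and −1.59 (SE 0.12, adjusted p = 1.2e-06), whereas FNTA, another subunit, had 0.04 and −0.02. ELOVL5, an elongase of polyunsaturated fatty acids, was lower by 1.08 (SE 0.13) and 0.97 (SE 0.13). SCD5 was higher in siMLK4 cells with vehicle, at 0.92 (SE 0.14), and the carboxylase ACACB and LPIN2 were higher with doxorubicin, at 1.17 (SE 0.13) and 0.94 (SE 0.15). With 1 siRNA pool, loss of MLK4 and other effects of the pool on these genes cannot be told apart.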

How the data were processed

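Messenger RNA of 12 HCC1806 cultures (4 groups, 3 libraries each) was sequenced by the authors, who trimmed reads with Trimmomatic 0.39, aligned them with HISAT2, counted them strand by strand with HTSeq 0.6.0 and applied the variance-stabilizing transform of DESeq2. The deposited values are therefore on a log2 scale, for 17013 genes. The submitters' processing notes name hg19 and the methods name GRCh38. No gene was dropped or imputed here.

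Undoing the transform gave whole reads for 100% of values (within 0.05), hence the totals, 16759025 to 19302248 reads per library, and size factors of 0.852 to 1.20. Levels are reads divided by size factor, and precision is given as the spread between libraries.

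Tests used the deposited log2 values in limma 3.58.1 (R 4.3.3), with 1 mean per group over all 12 libraries, a trended prior and Benjamini-Hochberg adjustment over 17013 genes. Calls required more than 0.75 on the log2 scale in either direction and an adjusted p below 0.01. Since the transform shrinks low values, fold changes of weakly expressed genes are understated. On simulated data for the siNT doxorubicin comparison (17013 genes) 75% of 100 genes changed by 1 on the log2 scale and 100% of 100 changed by 2 were called, and 0 of 16813 unchanged genes. Whether these rates hold for the measured libraries, whose length slopes differ within a group, was not tested. Limma-voom on the recovered reads was an alternative.

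Replicate numbers were checked for pairing by the correlation of deviations from group means. It was 0.46, 0.105 and 0.205 for the siNT pairs and 0.19, 0.516 and 0.559 for siMLK4 against siNT with doxorubicin. These numbers were taken as paired, from the values alone. The correlation was −0.077, 0.176 and 0.337 for the siMLK4 pairs. For siMLK4 against siNT with vehicle it was −0.723, 0.325 and −0.523, so that replicates 1 and 3 deviated in opposite directions. The main tests leave pairing out, and replicate number as a block was an alternative.

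The genes described in full were the regulators and, per comparison, up to 4 called genes in each direction with the largest change and no overlap between groups (up to 3 for other lists), or for the difference the 4 smallest p. ACSL1, ACSL3, ACSL5 between siRNAs, FNTA and the single cell markers were named after their values were seen. The members and lists were chosen with earlier results of these data known. Symbols and transcript lengths came from GENCODE 44. Promoter windows came from RefSeq. Figures were drawn in Python 3.11.15.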

Additional observations from a re-analysis of the deposited data

Results flagged for a closer look

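The doxorubicin response of IDI1 differed between siRNAs, with a log2 difference of −1.13 (siMLK4 minus siNT, adjusted p = 0.0023 in limma's interaction contrast). The doxorubicin response of MYLIP differed in the same way by −0.76 (adjusted p = 0.028, which misses the 0.01 used for calls). All 3 siMLK4 libraries of MYLIP lay above the siNT libraries with vehicle and below them with doxorubicin.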

How the results depend on the processing

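Among 479 values of named genes under alternatives, 454 kept their direction and their side of the threshold, 21 fell short of it, 4 came to pass it and 0 reversed. The 307 other values were counts and medians, and moves among them are given below. Scaling by library totals moved the median of the 36 genes to −0.21 with doxorubicin in siNT cells, −0.21 in siMLK4 cells and −0.041 between siRNAs with vehicle, and between siRNAs with doxorubicin that median changed sign, to 0.027. It gave 3 higher genes with doxorubicin in siMLK4 cells, against 17% of all genes. Between siRNAs without drug, 1 of the 36 genes was called higher under it, against 3.71% of all genes. None was called lower there, against 2.03%. Relative to the median of all genes the 36 stood at −0.39 and −0.37 with doxorubicin under this scaling. An adjusted p under 0.05 with no fold threshold gave 5 higher and 18 lower of the 36 with doxorubicin in siMLK4 cells (30.2% and 27.7% of all genes), 5 higher and 5 lower between siRNAs with vehicle (12.7% and 13%), 5 higher and 7 lower with doxorubicin (12.7% and 12.1%), and 2 lower for the difference (0.623%). With vehicle, log2(normalized reads + 1), limma-voom and the length slope, an alternative chosen after seeing the data, each gave 1 higher gene, and only the groups compared gave 0 lower. The length slope gave 3 lower genes for the difference. Shares of all genes under that fit are not given here, so its counts cannot be set against them.

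Without 1 library at a time, the counts of higher and lower genes ranged from 3 to 4 and 14 to 15 with doxorubicin in siNT cells (median −0.49 to −0.41), from 1 to 2 and 14 to 14 in siMLK4 cells (−0.50 to −0.36), from 0 to 1 and 0 to 1 between siRNAs with vehicle (−0.17 to −0.053), from 1 to 3 and 2 to 2 with doxorubicin (−0.094 to 0.012), and from 0 to 0 and 0 to 2 for the difference (0.091 to 0.14). With replicate number as a block, the pairing changed 1 call, ABCA1, so that 2 rather than 3 genes were higher with doxorubicin in siMLK4 cells, and the other counts were 14 lower and 4 higher, 14 lower and 1 higher, 1 lower and 2 lower. ABCA1 also fails with at least 10 reads in every library and on log2(normalized reads + 1), each at an adjusted p of 0.011. Over all alternatives that keep the fold threshold and the p threshold, 14 of 18 calls held in siNT cells, 13 of 15 in siMLK4 cells, 0 of 1 with vehicle, 3 of 5 with doxorubicin and 0 of 1 for the difference. The lowest value of CYP51A1 was 10 reads and that of ABCA1 68, which limits what can be said of either.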
